A study of Homo sapiens with 6 samples.

Results

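Interferon-stimulated and RNA-sensing genes were examined in MDA-MB-231 cells, an established human triple-negative breast cancer (TNBC) line, after YAP1 knockdown. The set was given as 45 symbols, which name 43 distinct genes because DDX58 and TMEM173 are older symbols of RIGI and STING1. It holds 5 sensors of foreign nucleic acid, 3 adaptors and kinases, 3 interferon regulatory factors (IRFs), 5 genes of the interferon receptor and its transcription factor complex, and 27 genes that interferon induces. Of the 43 genes, 40 reached 0.5 FPKM on average across the 6 libraries and were tested, among 14770 genes tested in all. FPKM counts fragments per kilobase of transcript, relative to all mapped fragments, so it can be compared between genes of different length.

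RNA-sequencing was performed on 3 libraries of cells with a control short hairpin RNA, called Sh-NC, and 3 libraries of cells whose hairpin targets YAP1, called Sh-YAP1. The labels give the genotype of the Sh-NC cells as WT and that of the Sh-YAP1 cells as YAP1 knockdown. All 6 libraries carry the label day 3, without saying from which event it was counted, and none was treated. The figure legends of the study describe stable expression of the hairpins, while its methods describe transfection with Lipofectamine, a lipid reagent. Both groups therefore carry a hairpin RNA, and no library of cells without a hairpin was analysed here. A level that a hairpin as such had raised in both groups and the level of the untouched line cannot be told apart. What can be compared is the YAP1 hairpin with the control hairpin. The sequences of the hairpins are not given in the sources used here, and nothing in the labels shows that more than a single YAP1 hairpin was used, so YAP1 loss and any other effect of that hairpin cannot be told apart either.

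Cells detect foreign RNA through RIG-I and MDA5 in the cytosol and through TLR3 in endosomes, and detect DNA in the cytosol through cGAS. These signal through MAVS, STING and other adaptors to kinases such as TBK1, which activate IRF3 and IRF7 to switch on interferon genes. Secreted type I interferon binds IFNAR1 and IFNAR2, and JAK1 and TYK2 then activate STAT proteins, STAT2 among them, which join IRF9 in the complex ISGF3. ISGF3 binds the interferon-stimulated response element (ISRE) in the promoters of genes whose products block viral RNA, entry or assembly. Short hairpin RNAs are double-stranded RNA, and some can set off this pathway. Many sensors and signalling genes of the pathway are themselves induced by interferon.

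The ISRE was looked for in the promoters, because it is the element through which these genes are switched on together. The promoters were windows of 300 bases from RefSeq (GRCh38.p14), with 250 bases before and 50 bases after a transcription start, and 32 members had at least 1 window. The letters searched were GAAA, any 2 bases and GAAA again, on both strands, and 19 of the 32 members (59.4%) held them, against 3.57% of the 35116 windows of all genes and 3.87% of the 10228 tested genes that have a window. Among the induced genes 17 of 22 held a match, and among the sensing and signalling genes 2 of 10 did, IFIH1 and TLR3. The sequences shown are those of IFI44, the member whose level rose, of its neighbour IFI44L, of ISG15, IFIT1 and IFI6 as induced genes with several matches, of the sensor IFIH1, and of the sensor RIGI, in which these letters were not found in the window. Each ends at the base before the start, is written 5′ to 3′ on the strand of the gene, and has the matches in capitals, with overlapping matches run together and matches on the opposite strand reading TTTC, any 2 bases and TTTC.
IFI44 (chr1:78649639-78649788, plus strand): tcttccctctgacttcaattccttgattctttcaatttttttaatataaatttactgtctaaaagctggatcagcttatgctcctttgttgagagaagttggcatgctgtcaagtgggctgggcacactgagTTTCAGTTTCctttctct
IFI44L (chr1:78620278-78620447, plus strand): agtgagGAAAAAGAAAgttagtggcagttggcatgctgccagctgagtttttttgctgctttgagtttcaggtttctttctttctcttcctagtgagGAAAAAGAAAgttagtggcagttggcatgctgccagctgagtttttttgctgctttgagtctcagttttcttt
ISG15 (chr1:1013347-1013496, plus strand): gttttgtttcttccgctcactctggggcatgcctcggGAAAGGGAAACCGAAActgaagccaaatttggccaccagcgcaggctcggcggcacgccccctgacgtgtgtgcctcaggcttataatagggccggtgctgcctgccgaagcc
IFIT1 (chr10:89392473-89392622, plus strand): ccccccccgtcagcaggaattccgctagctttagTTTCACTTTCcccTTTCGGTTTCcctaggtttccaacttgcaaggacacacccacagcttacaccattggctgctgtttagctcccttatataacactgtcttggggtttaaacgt
IFI6 (chr1:27672193-27672352, minus strand): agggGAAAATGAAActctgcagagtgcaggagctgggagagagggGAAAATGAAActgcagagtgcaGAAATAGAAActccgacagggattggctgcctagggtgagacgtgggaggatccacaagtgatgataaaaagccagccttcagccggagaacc
IFIH1 (chr2:162318685-162318849, minus strand): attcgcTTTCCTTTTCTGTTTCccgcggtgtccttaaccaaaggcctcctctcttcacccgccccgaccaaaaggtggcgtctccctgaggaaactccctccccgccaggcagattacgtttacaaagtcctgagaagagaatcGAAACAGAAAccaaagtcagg
RIGI (chr9:32526197-32526346, minus strand): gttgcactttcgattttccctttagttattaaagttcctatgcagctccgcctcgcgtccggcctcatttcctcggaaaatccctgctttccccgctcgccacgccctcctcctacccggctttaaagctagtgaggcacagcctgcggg
The match in IFI44 lay 18 to 9 bases before the start used here, and 60 to 51 bases before another RefSeq start of this gene. The windows of ISG15, IFIT1 and IFI44L held 2 matches each, and those of IFI6 and IFIH1 held 3 each. A match is a description of the letters and not a measured binding site. The letters TTCNNNGAA, the gamma-activated site (GAS) of genes that interferon gamma induces, were found in 10 of the 32 members (31.2%) and in 8.43% of the tested genes that have a window. GGAATG, the core letters bound by the TEAD factors that carry YAP1 to DNA, were found in 9 of the 32 members (28.1%) and in 14.9% of those genes. By role, GGAATG was found in 4 of the 22 induced genes and in 5 of the 10 sensing and signalling genes. IFI44, IFI44L, ISG15 and IFI6 held neither of these letters in their windows.

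**Figure D1:**
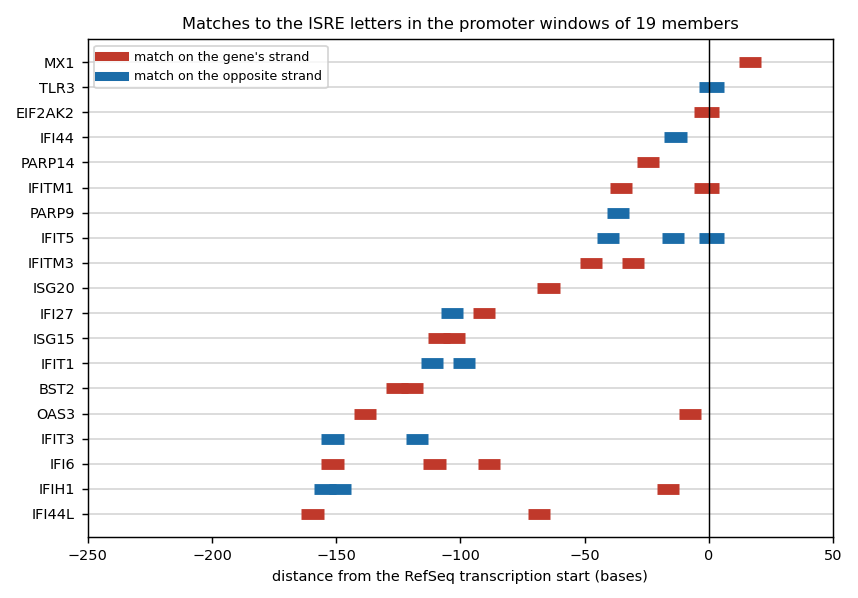
Position of each match to the ISRE letters, in bases from the RefSeq transcription start, in the window of the 19 members that hold them (for members with several starts, the window lowest on the chromosome). Red bars are matches on the strand of the gene and blue bars matches on the opposite strand. In the window drawn, the match of IFI44 lies 18 to 9 bases before the start.

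The libraries were first checked for the targeted gene. YAP1 (ENSG00000137693) had 28.12, 26.24 and 22.87 FPKM in the Sh-NC libraries, and 3.35, 2.67 and 2.58 FPKM in those of Sh-YAP1, without overlap (replicates 1 to 3 in order, here and below). Its log2 difference was -2.79 (adjusted p = 0.00180, limma with Benjamini-Hochberg). FPKM summed to 467493 to 475116 per library, and 13037 to 13219 genes reached 1 FPKM. Pearson correlations across genes, which are not independent replicates, were 0.978 to 0.982 between libraries of a group and 0.971 to 0.976 between groups. ESR1 and PGR, the receptors that TNBC lacks, were under 0.1 FPKM in every library, while ERBB2 had 14.34 to 18.08 FPKM. VIM, CD44, EGFR, KRT18 and S100A4, which mark the cells of this line, summed to 2297 to 2959 FPKM in Sh-NC and to 2324 to 2678 FPKM in Sh-YAP1. Most of this sum was VIM. KRT18 was lower without overlap in Sh-YAP1 (log2 difference -0.23, adjusted p = 0.102, limma with Benjamini-Hochberg). VIM, CD44, EGFR and S100A4 overlapped between the groups.

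All differences below are Sh-YAP1 minus Sh-NC on the log2(FPKM + 1) scale, which understates the change of weakly expressed genes. The members as a group were centred near no difference. Of 40 members tested, 22 had a higher and 18 a lower mean in Sh-YAP1, and the median log2 difference was 0.03, beside -0.00 over all genes tested. A single member, IFI44, passed an adjusted p of 0.05 (limma, Benjamini-Hochberg), which is 2.50% of the members. Among all genes 3.38% passed, 1.75% higher and 1.62% lower. At an unadjusted p under 0.05 in limma there were 10 members (25.0%), 5 higher and 5 lower, beside 21.9% of all genes, 10.8% higher and 11.1% lower. The values of the 3 Sh-YAP1 libraries lay wholly outside those of the 3 Sh-NC libraries in 11 members (27.5%), 6 higher and 5 lower, beside 29.4% of all genes, 14.6% higher and 14.7% lower. These shares were close to those over all genes, and they are not a result about the members. Nothing in the labels says that the libraries of a group came from separate cultures, so p-values measure only the spread between these libraries.

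The size of change that the data allow can be read from the 95% interval of each difference. The upper bound was under 1 on the log2(FPKM + 1) scale for 39 of the 40 members, beside 95.6% of all genes tested. The exception was MAVS, whose upper bound was 1.11. On this scale a bound under 1 can still allow more than a 2-fold rise in FPKM of a weakly expressed gene. Taken from the Sh-NC mean, the upper bound was an FPKM ratio of 2.95 for IFI27, 2.28 for TLR3 and 2.23 for MAVS, and at most 1.98 for the other 37 members. For 30 of the 40 members the upper bound was under 0.5, beside 73.4% of all genes. The lower bound was above -1 for all 40. These intervals rest on 3 libraries per group and cover the spread between libraries only. In bulk RNA, a gene that changed in few cells and a smaller change in all cells cannot be told apart.

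**Figure D2:**
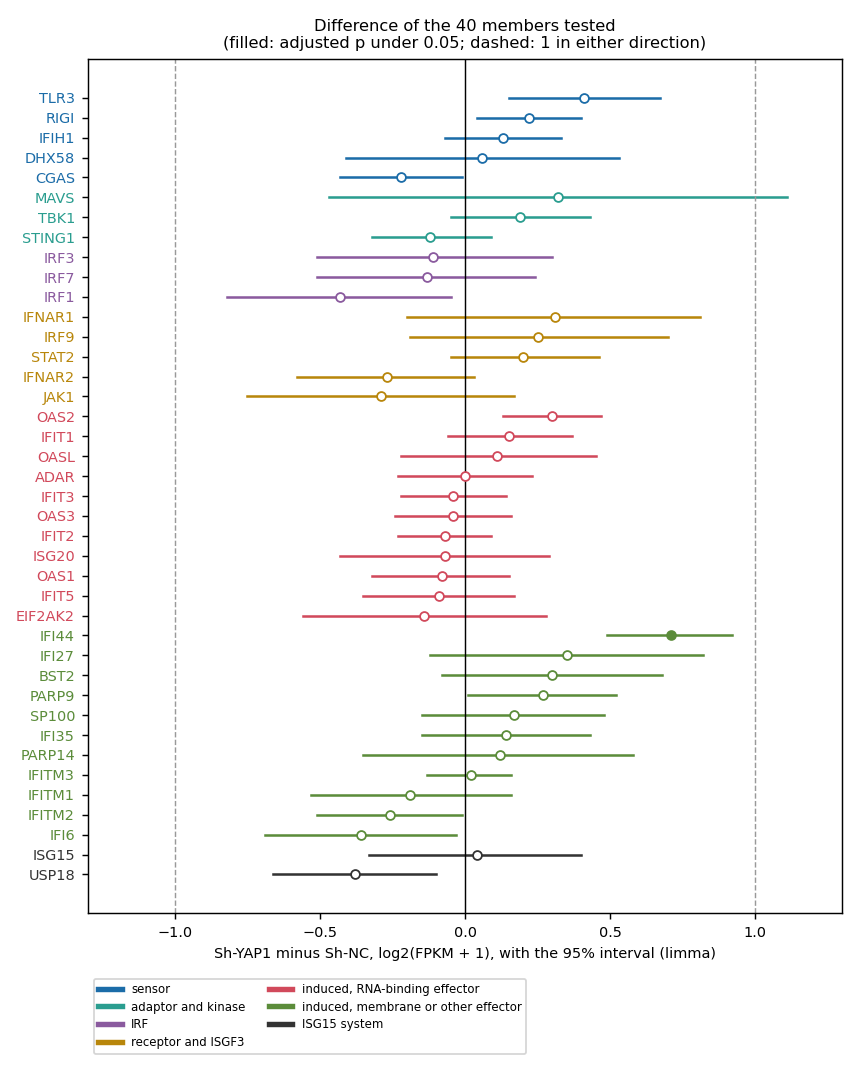
Log2 difference (Sh-YAP1 minus Sh-NC, on the log2(FPKM + 1) scale) of the 40 members tested, in rows by role, with the 95% interval from limma. The filled point is IFI44 at 0.71, the only member with an adjusted p under 0.05, and MAVS is the only member whose interval reaches past 1.

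Among the sensors, 0 of 5 passed the adjusted threshold and 3 had an unadjusted p under 0.05 (limma), 2 higher and 1 lower, beside 3.38% and 21.9% of all genes. These are too few genes for a share to be read against the background, which also holds for each of the other roles below. RIGI, the helicase RIG-I that recognises RNA with a 5′ triphosphate, was the sensor with the highest level. It had 24.64, 24.72 and 25.85 FPKM in Sh-NC and 31.30, 27.61 and 29.29 FPKM in Sh-YAP1, and the groups did not overlap. The log2 difference was 0.22 (95% interval 0.04 to 0.40, adjusted p = 0.153, limma with Benjamini-Hochberg). IFIH1, the helicase MDA5 that recognises long double-stranded RNA, had 3.96, 4.23 and 3.79 FPKM in Sh-NC and 4.62, 4.27 and 4.54 FPKM in Sh-YAP1. Its lowest Sh-YAP1 value stood only just above its highest Sh-NC value, and the log2 difference was 0.13 (-0.07 to 0.33, adjusted p = 0.401, limma with Benjamini-Hochberg). DHX58, the helicase LGP2 that modulates the other 2, was weakly expressed, at 1.16, 2.14 and 1.45 FPKM in Sh-NC and 1.95, 1.13 and 1.98 FPKM in Sh-YAP1, with overlapping groups. Its log2 difference of 0.06 changed sign when single libraries were left out.

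TLR3, the endosomal receptor of double-stranded RNA, had 1.03, 0.74 and 0.82 FPKM in Sh-NC and 1.42, 1.37 and 1.63 FPKM in Sh-YAP1. All Sh-YAP1 values were above all Sh-NC values, and the ratio of the means was 1.71. The log2 difference was 0.41 (0.15 to 0.67), and it missed the threshold (adjusted p = 0.0991, limma with Benjamini-Hochberg). A pseudocount of 0.01 gave this weakly expressed gene a log2 difference of 0.77. CGAS, the cytosolic DNA sensor, moved the other way, with 7.47, 8.18 and 7.55 FPKM in Sh-NC and 6.35, 7.11 and 6.07 FPKM in Sh-YAP1 and no overlap. Its log2 difference was -0.22 (-0.43 to -0.01, adjusted p = 0.214, limma with Benjamini-Hochberg).

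The adaptors and kinases and the IRFs held no gene past the threshold. Of the 3 adaptors and kinases, 0 had an unadjusted p under 0.05 in limma, beside 21.9% of all genes, and of the 3 IRFs 1 did. STING1, the adaptor downstream of cGAS, had 21.42, 20.13 and 18.36 FPKM in Sh-NC and 18.45, 17.26 and 19.32 FPKM in Sh-YAP1, with overlap and a log2 difference of -0.12, or -0.07 without Sh-NC replicate 1 or Sh-YAP1 replicate 2. MAVS, the mitochondrial adaptor of RIG-I and MDA5, had 21.80, 11.61 and 10.86 FPKM in Sh-NC and 23.41, 11.74 and 20.25 FPKM in Sh-YAP1. Libraries of both groups lay near 11 and above 20 FPKM, which left the interval of its log2 difference wide, 0.32 (-0.47 to 1.11). TBK1, the kinase, had a log2 difference of 0.19 with overlapping groups.

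IRF3, the IRF that is present before any stimulus, had 18.53, 24.08 and 20.43 FPKM in Sh-NC and 24.74, 16.25 and 17.97 FPKM in Sh-YAP1, and the groups overlapped throughout (log2 difference -0.11). That difference was -0.28 without Sh-YAP1 replicate 1 and 0.01 without Sh-YAP1 replicate 2. IRF3 overlaps BCL2L12 on the opposite strand, at a mean of 24.72 FPKM, and the sources used here do not say whether reads were counted by strand. IRF7, the IRF that interferon induces, had values of 3.21 to 5.27 FPKM and a log2 difference of -0.13. IRF1, an IRF that is induced by interferon gamma through the GAS, had 25.00, 15.69 and 20.73 FPKM in Sh-NC and 13.87, 15.32 and 14.76 FPKM in Sh-YAP1. The groups did not overlap, but the lowest Sh-NC library was near the Sh-YAP1 libraries, and the log2 difference was -0.43 (-0.82 to -0.05, adjusted p = 0.184, limma with Benjamini-Hochberg). In Sh-NC replicate 1, 20.81 FPKM of IRF1 were in a transcript row that had at most 0.08 FPKM in the other libraries. The log2 difference of IRF1 was -0.28 without Sh-NC replicate 1 and -0.60 without Sh-NC replicate 2.

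Of the 5 genes of the receptor and ISGF3, 0 passed the adjusted threshold and 0 had an unadjusted p under 0.05 (limma), beside 3.38% and 21.9% of all genes. All 5 overlapped between the groups, while 29.4% of all genes did not. JAK1, the receptor kinase, had 17.91, 20.23 and 18.96 FPKM in Sh-NC and 17.31, 11.01 and 19.02 FPKM in Sh-YAP1. Only Sh-YAP1 replicate 2 stood clearly below the others, and the log2 difference was -0.29 (-0.75 to 0.17), and -0.06 without that library. The receptor chains IFNAR1 and IFNAR2 had log2 differences of 0.31 and -0.27. STAT2 and IRF9, which belong to ISGF3, had log2 differences of 0.20 and 0.25.

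**Figure D3:**
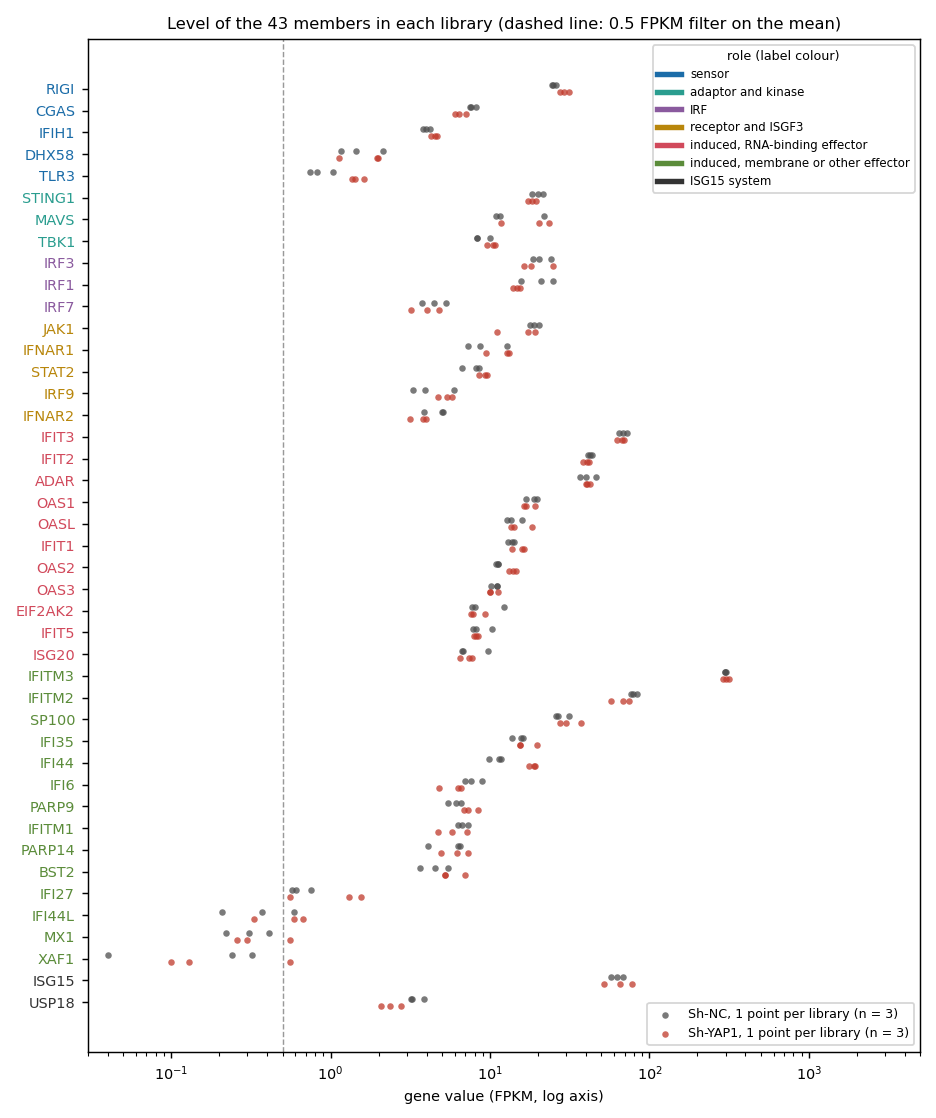
Gene value in FPKM (log axis) of the 43 members in each library, grey for Sh-NC and red for Sh-YAP1, 1 point per library. Rows are grouped by role and ordered by mean level, and the dashed line is the filter of 0.5 FPKM on the mean. Levels span from under 0.1 FPKM for XAF1 to 314.42 FPKM for IFITM3, and in most rows the red and grey points overlap.

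The induced genes are the readout of the pathway. Of the 27 induced members 24 were tested, 13 with a higher and 11 with a lower mean in Sh-YAP1, with a median log2 difference of 0.01 and a range from -0.38 to 0.71. The upper bound of the interval was below 1 on the log2(FPKM + 1) scale for all 24, although for IFI27 it still allowed an FPKM ratio of 2.95. MX1, IFI44L and XAF1, which strongly respond to interferon in many cells, stayed under the filter, with a highest value of 0.670 FPKM in any library and means of 0.343, 0.460 and 0.232 FPKM. The members just above the filter were IFI27, TLR3 and DHX58, with means of 0.890, 1.17 and 1.64 FPKM. The summed FPKM of the 24 genes was 749, 795 and 782 in Sh-NC and 764, 789 and 786 in Sh-YAP1, so the groups overlapped. The level of the median gene among the 24 was 11.7, 11.3 and 11.3 FPKM in Sh-NC and 13.7, 13.4 and 14.3 FPKM in Sh-YAP1, without overlap. IFITM3 gave the largest part of the sum, and IFI44 and OAS2 were among the genes near the level of the median.

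Of the 11 effectors that act on RNA, 0 passed the adjusted threshold and 1, OAS2, had an unadjusted p under 0.05 (limma), which is 9.09% beside 21.9% of all genes. The upper bound of the interval was under 0.5 for all 11, beside 73.4% of all genes. OAS2 makes the short oligoadenylates that activate RNase L when it binds double-stranded RNA. It had 11.15, 11.21 and 10.88 FPKM in Sh-NC and 13.90, 13.24 and 14.47 FPKM in Sh-YAP1. The groups were well apart, and the log2 difference was 0.30 (0.13 to 0.47) with an adjusted p of 0.0767 (limma, Benjamini-Hochberg). OAS1 and OAS3, which make the same product and lie beside OAS2 on chromosome 12, had log2 differences of -0.08 and -0.04, and OASL, a relative without that activity, had 0.11. Reads that these relatives share could have been split between them in the quantification.

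IFIT3 was the RNA-binding effector with the highest level. It belongs with IFIT1, IFIT2 and IFIT5 to a family that binds viral RNA ends, and its cluster spans 137 kb of chromosome 10 (GRCh38). IFIT3 had 64.86, 68.36 and 72.25 FPKM in Sh-NC and 67.03, 62.66 and 69.70 FPKM in Sh-YAP1, with overlapping groups and a log2 difference of -0.04 (-0.22 to 0.14). This sign turned with quantile normalization, which gave 0.01. IFIT1, IFIT2 and IFIT5 had log2 differences of 0.15, -0.07 and -0.09, each with overlapping groups. LIPA, on the opposite strand of IFIT1, IFIT2 and IFIT3, had a mean of 46.1 FPKM. ADAR, which edits double-stranded RNA, had a log2 difference of 0.00 (-0.23 to 0.23), EIF2AK2, the kinase PKR that is activated by double-stranded RNA, had -0.14, and the exonuclease gene ISG20 had -0.07.

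Of the 11 tested membrane and other effectors, 1 (9.09%) passed the adjusted threshold, beside 3.38% of all genes. An unadjusted p under 0.05 in limma was found for 4 (36.4%), 2 higher and 2 lower, beside 21.9%. With 11 genes these shares cannot be read against the background. IFI44 (ENSG00000137965, chr1:78649796-78664078 of GRCh38 in GENCODE 29, plus strand) encodes an interferon-induced protein of the cytoplasm. Its level was 9.83, 11.36 and 11.78 FPKM in Sh-NC and 18.77, 17.67 and 19.25 FPKM in Sh-YAP1. Every Sh-YAP1 library was far above every Sh-NC library. The means were 11.0 ± 1.03 FPKM for Sh-NC and 18.6 ± 0.810 FPKM for Sh-YAP1 (SD, n = 3), a ratio of 1.69. The log2 difference was 0.71 with a standard error of 0.090 and a 95% interval of 0.49 to 0.92 (adjusted p = 0.0173, limma with Benjamini-Hochberg). Its 6 values gave p = 0.1 in a two-sided exact permutation test, the lowest that groups of 3 can reach. The call was lost when any library but Sh-NC replicate 3 was left out, with adjusted p of 0.0581 to 0.0738 and log2 differences of 0.64 to 0.74.

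No single one of the 9 transcript rows of IFI44 carried the rise. When each row was left out in turn, the log2 difference was 0.58 to 0.94 and the groups stayed apart. None of the 9 rows of IFI44 passed on its own (limma with Benjamini-Hochberg over all rows), and their log2 differences ran from -0.04 to 1.00. IFI44L, its relative, ends 3650 bases before IFI44 starts, in the same orientation. IFI44L had 0.21, 0.59 and 0.37 FPKM in Sh-NC and 0.59, 0.67 and 0.33 FPKM in Sh-YAP1, and the groups overlapped.

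The other 3 effectors of this group with an unadjusted p under 0.05 missed the adjusted threshold. IFITM2, which blocks the fusion of viruses with cell membranes, had 76.73, 78.29 and 83.14 FPKM in Sh-NC and 73.94, 68.22 and 57.17 FPKM in Sh-YAP1, lower without overlap (log2 difference -0.26, adjusted p = 0.213, limma with Benjamini-Hochberg). Without Sh-YAP1 replicate 3 the log2 difference of IFITM2 was -0.16. IFI6, an inducible membrane protein, had 6.96, 8.85 and 7.59 FPKM in Sh-NC and 4.78, 6.57 and 6.30 FPKM in Sh-YAP1, again lower without overlap (-0.36, adjusted p = 0.196, limma with Benjamini-Hochberg), and its log2 difference was -0.24 without Sh-YAP1 replicate 1. PARP9, an ADP-ribosyltransferase family member, had 5.43, 6.16 and 6.54 FPKM in Sh-NC and 8.38, 7.24 and 6.84 FPKM in Sh-YAP1, higher without overlap (0.27, adjusted p = 0.209, limma with Benjamini-Hochberg). PARP9 overlaps DTX3L on the opposite strand, at a mean of 8.51 FPKM.

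IFITM3, a relative of IFITM2, was the member with the highest level and among the steadiest. It had 296.76, 300.72 and 298.80 FPKM in Sh-NC and 289.65, 314.42 and 303.97 FPKM in Sh-YAP1. The Sh-YAP1 libraries lay on both sides of the Sh-NC libraries, with a log2 difference of 0.02 (-0.13 to 0.16) that was -0.01 without Sh-YAP1 replicate 2. IFITM1 had a log2 difference of -0.19 with overlapping groups. IFITM1 and IFITM2 share part of their annotated span, so their values may share reads. BST2, IFI27, IFI35, PARP14 and SP100 had log2 differences of 0.12 to 0.35, each with overlapping groups.

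The ISG15 system attaches the ubiquitin-like protein ISG15 to other proteins. ISG15 had 56.99, 68.54 and 62.48 FPKM in Sh-NC and 51.87, 65.64 and 77.20 FPKM in Sh-YAP1, with overlap and a log2 difference of 0.04 (-0.33 to 0.40). That difference was -0.10 without Sh-YAP1 replicate 3 and 0.19 without Sh-YAP1 replicate 1. USP18, the protease that removes ISG15 and dampens the interferon receptor, had 3.24, 3.85 and 3.18 FPKM in Sh-NC and 2.37, 2.77 and 2.07 FPKM in Sh-YAP1. All Sh-YAP1 values of USP18 were below all Sh-NC values, with a log2 difference of -0.38 (-0.66 to -0.10, adjusted p = 0.130, limma with Benjamini-Hochberg).

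The members that hold the ISRE letters did not move as a block. Of the 17 tested members with a match, 10 had a higher and 7 a lower mean in Sh-YAP1, with a median log2 difference of 0.04 and a range from -0.36 to 0.71. Of the 12 tested members whose window held no match, 9 had a higher and 3 a lower mean, with a median of 0.18 and a range from -0.43 to 0.32. IFI44 and IFI6 both held the letters, and their log2 differences were 0.71 and -0.36.

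Members were also read at the level of transcript rows. The files list 420 rows for the 43 genes, without transcript names. Of the 231 rows with a mean of at least 0.1 FPKM, 0 passed an adjusted p of 0.05 (limma, Benjamini-Hochberg over all rows), beside 0.0515% of the 77655 rows tested. At an unadjusted p under 0.05 there were 13 rows (5.63%) of 10 genes, beside 6.12% of all rows. Values of a gene could pass from a row to another in single libraries while the sum held. IFIT1 had 10.60 FPKM in its first row and 3.06 FPKM in its other row in Sh-YAP1 replicate 2, where the other 5 libraries had at most 1.38 FPKM in the first row.

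The wider interferon pathway was read from a list of 96 further genes, of which 70 were tested. All 12 interferon genes on it, IFNB1, IFNG, IFNL1 and members of the IFNA family among them, were listed at 0 in all 6 libraries. Of the 70 genes tested, 42 had a higher and 28 a lower mean in Sh-YAP1, with a median log2 difference of 0.04. Past the adjusted threshold of 0.05 in limma with Benjamini-Hochberg were 5 genes (7.14%), 3 higher and 2 lower, beside 3.38% of all genes. At an unadjusted p under 0.05 in limma there were 17 (24.3%), beside 21.9%, and in 24 (34.3%) the groups did not overlap, beside 29.4%. These lists, like the members, were chosen with results of these data known.

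IFI16, a sensor of DNA in the nucleus and cytosol, rose from 36.13, 32.75 and 40.28 FPKM in Sh-NC to 58.32, 58.16 and 56.51 FPKM in Sh-YAP1, a log2 difference of 0.65 (0.44 to 0.86, adjusted p = 0.0204, limma with Benjamini-Hochberg). GBP2, a guanylate-binding protein induced mainly by interferon gamma, rose from 4.28, 4.13 and 4.02 FPKM to 6.33, 6.62 and 6.77 FPKM, a log2 difference of 0.56 (adjusted p = 0.0220, limma with Benjamini-Hochberg). ZCCHC3, a zinc finger protein that helps RIG-I and cGAS bind their ligands, rose from 9.32, 9.27 and 9.16 FPKM to 12.24, 14.16 and 12.81 FPKM, a log2 difference of 0.45 (adjusted p = 0.0369, limma with Benjamini-Hochberg). In all 3 genes the groups were far apart.

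The other 2 genes past the threshold fell. IFI30, a lysosomal thiol reductase of antigen processing, went from 40.50, 41.71 and 35.46 FPKM in Sh-NC to 16.09, 19.40 and 20.43 FPKM in Sh-YAP1. Its log2 difference of -1.04 (-1.31 to -0.77, adjusted p = 0.0121, limma with Benjamini-Hochberg) was larger in size than that of any member. SOCS3, a feedback inhibitor of JAK kinases, went from 30.98, 30.49 and 28.51 FPKM to 21.26, 22.01 and 21.06 FPKM, a log2 difference of -0.47 (adjusted p = 0.0245, limma with Benjamini-Hochberg). When single libraries were left out, 0 to 3 of the 5 genes kept an adjusted p under 0.05. None did without Sh-NC replicate 1 or 2, IFI30, IFI16 and SOCS3 did without Sh-NC replicate 3, and IFI30 alone did without each of the Sh-YAP1 libraries.

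**Figure D4:**
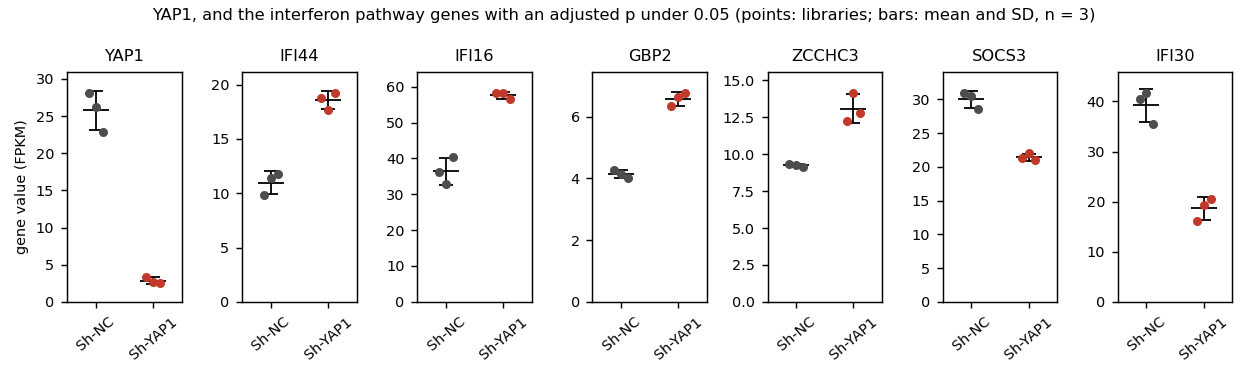
Gene value in FPKM of YAP1, of IFI44 and of the 5 wider pathway genes past the adjusted threshold of 0.05. Points are libraries and bars the mean and SD of 3 libraries. IFI44, IFI16, GBP2 and ZCCHC3 are higher in all Sh-YAP1 libraries, and YAP1, SOCS3 and IFI30 are lower in all of them.

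**Figure D5:**
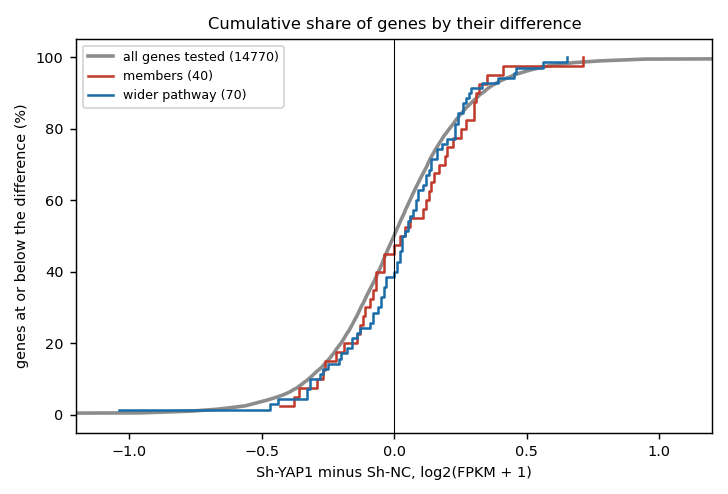
Share of genes (%) at or below each log2 difference (Sh-YAP1 minus Sh-NC, log2(FPKM + 1)) for all 14770 genes tested (grey), the 40 members (red) and the 70 wider pathway genes (blue). The medians are -0.00, 0.03 and 0.04, and the curves run close to each other.

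Short hairpins are exported from the nucleus, cut by DICER1 and loaded on Argonaute proteins, and the genes of this route were read in the same fit. Of 14 such genes tested, 0 passed an adjusted p of 0.05 and 4 had an unadjusted p under 0.05 (limma), 1 higher and 3 lower, which is 28.6% beside 21.9% of all genes. In 6 of the 14 (42.9%, beside 29.4% of all genes) the groups did not overlap, 1 higher and 5 lower, and the median log2 difference was -0.10. Cells of other types were checked through their markers, since white blood cells carry high levels of many members. PTPRC and CD3E, which define white blood cells and T cells, had at most 0.04 FPKM in any library. The summed level of the 6 markers of white blood cells, nearly all of it CD68, was 56.9 to 79.7 FPKM in Sh-NC and 66.2 to 81.8 FPKM in Sh-YAP1. The 3 endothelial markers summed to 0.770 to 1.76 FPKM in Sh-NC and 0.780 to 1.55 FPKM in Sh-YAP1, and the 3 fibroblast markers to 6.43 to 7.73 FPKM and 3.67 to 8.63 FPKM. None of these markers passed the adjusted threshold (limma, Benjamini-Hochberg).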

How the data were processed

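RNA-sequencing of 3 Sh-NC and 3 Sh-YAP1 libraries was done at LC-Bio. The authors deposited FPKM values with 2 decimals, 1 per transcript row (229420 rows, 60612 gene identifiers), per the file headers. The submitters' processing notes name Bowtie 0.12.2, HISAT2 2.0 and hg19, with no role or order. The quantification tool, annotation and strand setting are not given in the sources used here. The methods of the study cite a different data series, so the libraries were tied to it through the line, hairpin and replicate in their labels. The values hold no counts, so the depth is unknown, and low values did not fall on steps of whole reads.

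Rows were summed by gene identifier and genes averaging 0.5 FPKM or more (rows, 0.1) were kept. Symbols and gene positions came from GENCODE 29 (GRCh38) and promoters from RefSeq (GRCh38.p14). No promoter window was found for STING1, IRF3, IFNAR2, IFITM2, CGAS, USP18, DHX58, OASL, IRF7, IFIT2 and OAS2. The groups were compared with limma 3.58.1 in R 4.3.3 (lmFit, eBayes with a trend) on log2(FPKM + 1), without covariates, with Benjamini-Hochberg adjustment over all genes tested. Single genes also had an exact two-sided permutation test, whose smallest p is 0.1. The code was tested on simulated data. Other steps ran in Python 3.11.15 (matplotlib 3.10.9, numpy 2.4.6, pandas 2.3.3, scipy 1.17.1).

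Members and lists were chosen with earlier results of these data known. The members named with values are those with an adjusted or unadjusted p under 0.05, the one with the highest mean in each role, and all sensors. Of the wider pathway and hairpin processing lists, genes with an adjusted p under 0.05 are named, and a further gene of the rule is not reported here. MAVS, TBK1, IRF7, IFI44L and other members given by their log2 difference were added with their values in view. The alternatives were pseudocounts of 0.1 and 0.01, quantile normalization, median centring, no trend, no filter, a filter of 1 FPKM, sums over rows averaging 0.1 FPKM or more, a replicate block, and leaving out each library.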

Additional observations from a re-analysis of the deposited data

How the results depend on the processing

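IFI44 remained the only member past the adjusted threshold of 0.05 (limma, Benjamini-Hochberg) under all 8 alternatives of pseudocount, scaling, trend, filter and gene sum, with adjusted p of 0.0156 to 0.0366. The wider pathway held 5 genes past the threshold under 7 of these and 4 without a filter, and the hairpin processing list held 0 throughout. Leaving out single libraries gave 0 to 1 members and 0 to 3 wider pathway genes, beside 78 to 171 of all genes tested in place of 499, and the median log2 difference of the members ranged from -0.02 to 0.09. IFI44 kept its call only without Sh-NC replicate 3 (adjusted p = 0.0426). Without a filter 232 genes passed of the 30501 then tested. Same-numbered libraries of the groups deviated from their group means with correlations of -0.028, 0.062 and 0.004, so the numbers did not pair them. With a replicate block, 1 gene passed in all, with 0 members and 0 wider pathway genes, and IFI44 had an adjusted p of 0.121. Signs that turned were those of values near 0. IFIT3 was 0.01 with quantile normalization, and over the left-out libraries DHX58 ranged from -0.06 to 0.22, IFITM3 from -0.01 to 0.05, IRF3 from -0.28 to 0.01 and ISG15 from -0.10 to 0.19, and the cause was not tested. Median centring moved the median of all genes to -0.018. The depth is unknown, so what each level could resolve cannot be given.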

Other observations

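Some genes of the wider pathway and of hairpin processing came close to the threshold, and they are given here as values, chosen after their values were seen. TRIM25, the ubiquitin ligase that supports RIG-I signalling, had 41.18, 36.11 and 36.02 FPKM in Sh-NC and 25.31, 29.57 and 27.80 FPKM in Sh-YAP1 (log2 difference -0.44, adjusted p = 0.0556, limma with Benjamini-Hochberg). SAMD9, an interferon-induced antiviral factor, had 4.24, 4.05 and 5.35 FPKM in Sh-NC and 6.44, 6.17 and 7.12 FPKM in Sh-YAP1 (0.46, adjusted p = 0.0887, limma with Benjamini-Hochberg). AGO2, the Argonaute that cuts targets of short hairpins, had 12.74, 13.67 and 11.11 FPKM in Sh-NC and 9.55, 7.45 and 6.86 FPKM in Sh-YAP1 (-0.60, adjusted p = 0.0688, limma with Benjamini-Hochberg). TARBP2, the partner of DICER1, had 15.69, 16.70 and 16.35 FPKM in Sh-NC and 11.82, 13.21 and 13.64 FPKM in Sh-YAP1 (-0.31, adjusted p = 0.0908, limma with Benjamini-Hochberg). The groups did not overlap in these 4 genes, nor in 29.4% of all genes tested. Genes picked for a low p are nearly bound to show this, so nothing is drawn from it.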
